A study of Oryza sativa with 6 samples.

Results

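The calcium-transporting ATPases of rice (Oryza sativa) roots were examined under cadmium (Cd) with and without Fo10. The family was taken as every gene described in the authors' table as a calcium-transporting ATPase. Of the 12 genes so described, the 10 with at least 1 TPM (transcript abundance scaled to length and to a fixed library total) in at least 3 of the 6 libraries were kept, out of 42031 features listed and 21166 that reached the same level. The members were thus chosen by description and by TPM level in these libraries, so the fact that they were detected is not a finding. Wild-type roots from a greenhouse were given 10 µM Cd alone (Cd, 3 libraries) or 10 µM Cd with 0.5% Fo10 (Fo+Cd, 3 libraries). Both groups received Cd and no group without it was analysed here, so the comparison concerns Fo10 in the presence of Cd. What Fo10 is cannot be read from the labels. Nor do they state whether replicates came from separate plants, so the p-values reflect library-to-library spread that could be technical.

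Calcium-transporting ATPases are P-type pumps: they are phosphorylated on an aspartate during each cycle and use ATP to move Ca2+ out of the cytosol. Plants have a pair of classes. The ECA type resembles the animal endoplasmic reticulum pump, and the ACA type carries a terminal autoinhibitory region that is released when calmodulin binds. Together with vacuolar exchangers they bring cytosolic Ca2+ back to its resting level after a signal, and in Arabidopsis some ECA pumps also move manganese. The table describes all members by the same words and names none of them, so the class of each gene and the membrane it serves are not stated here.

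No member passed the test for a difference between Fo+Cd and Cd. By limma on log2(TPM + 1), 0 of 10 members had an adjusted p under 0.05, beside 2.45% of all tested features, 1.72% higher and 0.723% lower in Fo+Cd. Of the 518 features with such a p, 206 were among the 226 tested genes described without a database source. The description of each member cites a source, so 2.45% is not a share over genes described alike. The wording of a description thus went with being called, and a calcium pump described in other words would not be among the members. The count of 0 of 10 covers only genes with this description, and no conclusion is drawn from setting it beside 2.45%. Without adjustment 2 members had a p under 0.05, both lower in Fo+Cd, and 1 did when replicate 1 or 2 of either group was left out. Over all tested features 15.4% had such a p, 7.35% with higher and 8.06% with lower values in Fo+Cd. Two-sided tests were fitted over all 21166 features, and the adjustment was over the same features. The family's summed level was nearly the same in both groups. The 10 members together held 303, 329 and 296 TPM in Cd replicates 1, 2 and 3, and 312, 326 and 308 TPM in Fo+Cd replicates 1, 2 and 3. These values overlap, with means of 309 ± 17.4 in Cd and 315 ± 9.89 TPM in Fo+Cd (SD, n = 3 each).

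**Figure D1:**
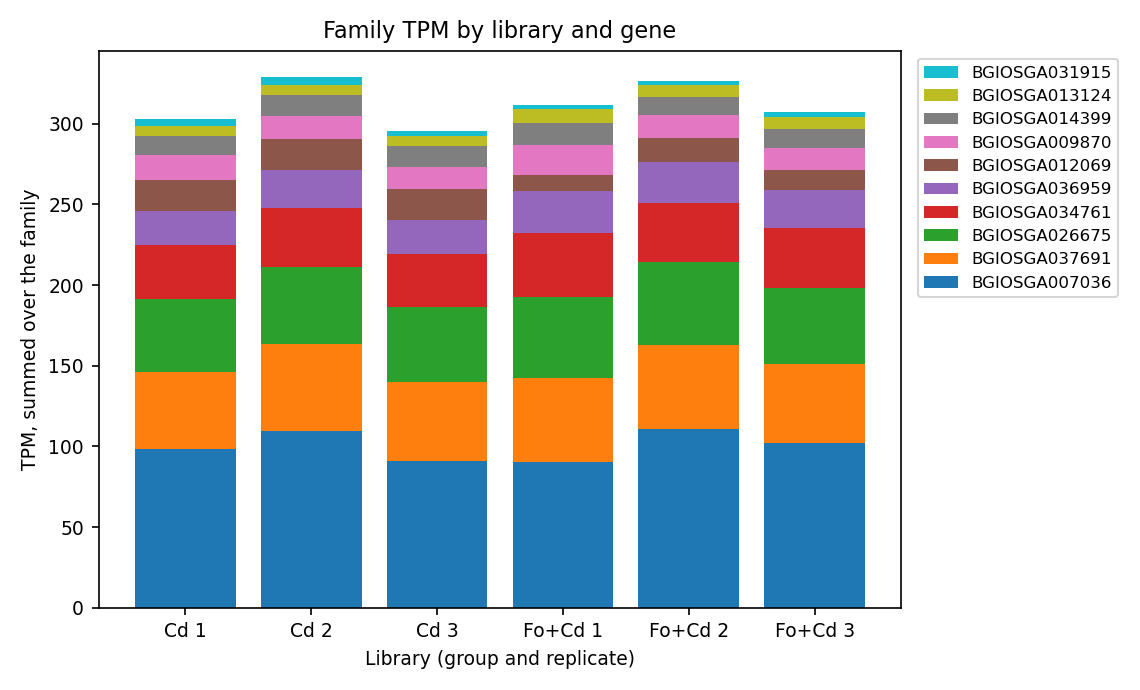
Stacked TPM of the 10 calcium-transporting ATPase genes (colours) in each of the 6 libraries (x axis, group and replicate). Total height stays between 296 and 329 TPM, and the BGIOSGA012069 segment is thinner in the 3 Fo+Cd libraries.

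Levels within the family covered a 28.7-fold range of TPM, a unit that is already scaled to transcript length. BGIOSGA007036 was the most abundant, at 98.4, 109.6 and 91.1 TPM in Cd and 90.3, 110.9 and 102 TPM in Fo+Cd replicates 1, 2 and 3. It lay above 91.6% of all tested features in level and held 32.2% ± 1.29 of the family's TPM in Cd and 32.0% ± 2.68 in Fo+Cd. BGIOSGA037691 followed, with Cd and Fo+Cd means of 50.3 ± 3.37 and 51.1 ± 1.61 TPM, then BGIOSGA026675 at 46.4 ± 1.34 and 49.5 ± 2.18 TPM. After these came BGIOSGA034761 and BGIOSGA036959, and the remaining 5 genes had group means under 20 TPM. At the low end BGIOSGA031915 lay above 18.1% of tested features.

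The order of the levels was almost the same in the 2 groups. In Cd it ran BGIOSGA007036, BGIOSGA037691, BGIOSGA026675, BGIOSGA034761, BGIOSGA036959, BGIOSGA012069, BGIOSGA009870, BGIOSGA014399, BGIOSGA013124 and BGIOSGA031915, and no neighbours in this order had overlapping ranges over the 3 libraries. In Fo+Cd the order differed by a single exchange: BGIOSGA009870 stood sixth, ahead of BGIOSGA012069. There the ranges of BGIOSGA037691 and BGIOSGA026675 overlapped, as did those of BGIOSGA009870 and BGIOSGA012069 and those of BGIOSGA012069 and BGIOSGA014399, so these neighbours cannot be ordered.

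**Figure D2:**
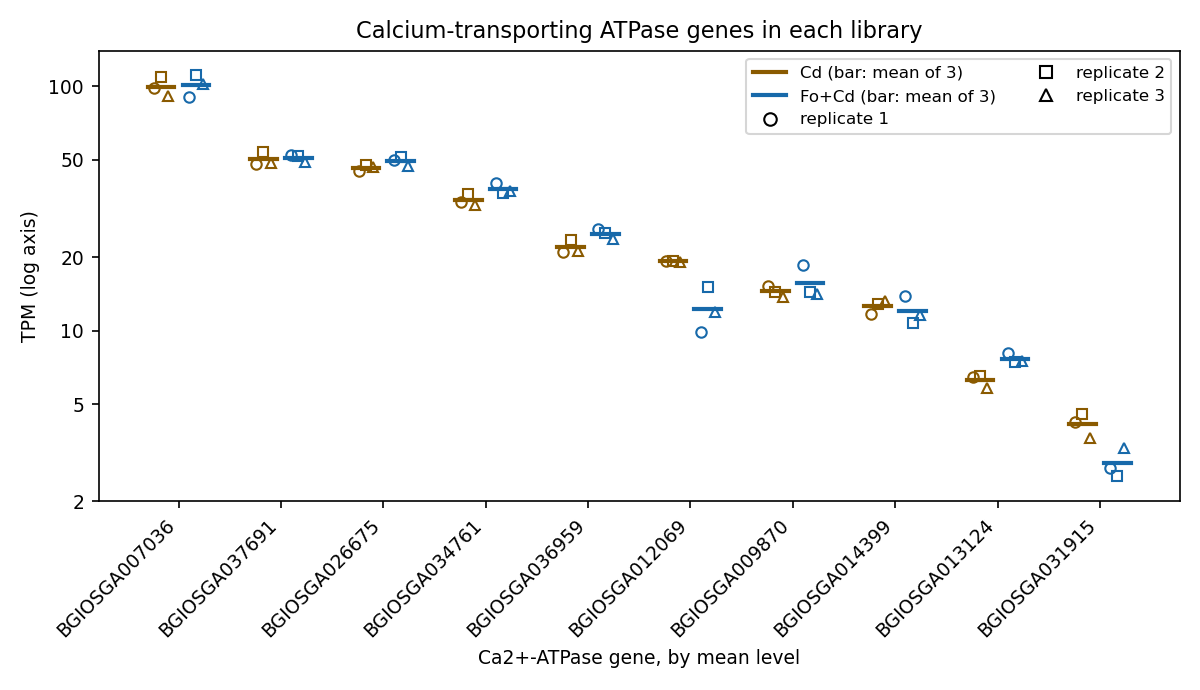
TPM on a log axis for the 10 members (x axis, ordered by mean level), with 1 symbol for each library and a bar at the mean of each group of 3. The groups lie apart for BGIOSGA034761, BGIOSGA036959, BGIOSGA012069, BGIOSGA013124 and BGIOSGA031915 and overlap for the other members.

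The gene with the smallest p of the family was BGIOSGA012069. It was at 19.4, 19.4 and 19.1 TPM in Cd replicates 1, 2 and 3 and at 9.87, 15.1 and 11.9 TPM in Fo+Cd replicates 1, 2 and 3. Every Fo+Cd library was below every Cd library, and the Fo+Cd libraries were spread far more widely than the Cd libraries, with a coefficient of variation of 21.5% against 0.659%. Group means were 19.3 ± 0.127 and 12.3 ± 2.64 TPM (SD, n = 3 each), 36.3% apart. On the log2(TPM + 1) scale the difference was -0.63 (SE 0.149, 95% interval -0.98 to -0.28), which did not pass in limma (adjusted p = 0.0927). A larger difference in either direction was found for 8.49% of tested features. Its share of the family's TPM was 6.25% ± 0.316 in Cd and 3.89% ± 0.73 in Fo+Cd. Leaving out Fo+Cd replicate 2, its highest Fo+Cd library, gave a log2 difference of -0.78 and an adjusted p of 0.0468, so 1 library decides on which side of the threshold this gene falls. Over all 13 alternatives tried the difference lay between -0.78 and -0.49 and the adjusted p between 0.0468 and 0.267.

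BGIOSGA031915, the least abundant member, also had lower values with Fo10. Its levels were 4.21, 4.56 and 3.62 TPM in Cd and 2.74, 2.54 and 3.29 TPM in Fo+Cd replicates 1, 2 and 3. The groups did not overlap, but the nearest libraries, Cd replicate 3 and Fo+Cd replicate 3, were close together. Means were 4.13 ± 0.475 and 2.86 ± 0.388 TPM, and the log2(TPM + 1) difference of -0.41 (SE 0.151) did not pass in limma (adjusted p = 0.254). At this level the pseudocount of 1 TPM shrinks a difference: with 0.1 TPM in its place the value was -0.52 (adjusted p = 0.256).

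Among the members with higher values in Fo+Cd, BGIOSGA013124 had the largest difference. It was at 6.46, 6.53 and 5.83 TPM in Cd and 8.10, 7.44 and 7.51 TPM in Fo+Cd replicates 1, 2 and 3, with no overlap between the groups. The log2 difference was 0.26 (SE 0.113, 95% interval -0.01 to 0.52, adjusted p = 0.343 in limma). BGIOSGA036959 was at 20.9, 23.6 and 21.3 TPM in Cd and 26.0, 25.2 and 23.7 TPM in Fo+Cd. The lowest Fo+Cd library and the highest Cd library of this gene were only 23.65 and 23.57 TPM, so the separation is marginal (log2 difference 0.18, adjusted p = 0.4). BGIOSGA034761 was at 33.8, 36.3 and 32.6 TPM in Cd and 40.1, 36.7 and 37.2 TPM in Fo+Cd. Here too the groups were apart by little, and the log2 difference was 0.15 (adjusted p = 0.455).

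The groups did not overlap in 5 of the 10 members, with 3 higher and 2 lower in Fo+Cd. Over all tested features 21.3% had groups that did not overlap, 11.3% with Fo+Cd higher and 10.0% with Fo+Cd lower. None of these 5 genes passed the adjusted test. The median pooled SD of log2(TPM + 1) within groups was 0.108 for the members and 0.173 for all tested features.

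For the other 5 members the groups overlapped. BGIOSGA009870 was at 15.3, 14.4 and 13.7 TPM in Cd and 18.6, 14.4 and 14.1 TPM in Fo+Cd replicates 1, 2 and 3, with Fo+Cd replicate 1 alone above the rest. BGIOSGA014399 was at 11.7, 12.8 and 13.2 TPM in Cd and 13.8, 10.8 and 11.5 TPM in Fo+Cd, again highest in Fo+Cd replicate 1. BGIOSGA026675 was at 44.95, 47.6 and 46.7 TPM in Cd and 49.9, 51.5 and 47.2 TPM in Fo+Cd. In all, Fo+Cd replicate 1 held the highest value of 5 members and the lowest of 2, one of which was BGIOSGA012069. The 2 most abundant genes differed least, with log2 differences of 0.02 for BGIOSGA007036 (95% interval -0.24 to 0.28) and 0.02 for BGIOSGA037691 (-0.17 to 0.22).

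A missed threshold does not show that a gene was the same in both groups, so the intervals are given. For 8 of the 10 members the 95% interval of the difference on the log2(TPM + 1) scale lay within a 1.5-fold change in either direction, and for all 10 within 2-fold. The exceptions at 1.5-fold were BGIOSGA012069, whose interval reached 0.507 of the Cd level (TPM + 1), and BGIOSGA031915, whose interval reached 0.587. In sign, 7 members had higher values in Fo+Cd and 3 lower, while 49.6% of all tested features were lower. The number of higher members was 6 without Cd replicate 1, Cd replicate 3 or Fo+Cd replicate 1, as some differences were near 0. The median log2 difference of the members was 0.06 against 0.00254 for all tested features. In size, the median difference regardless of sign was 0.126 for the members and 0.152 for all tested features.

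**Figure D3:**
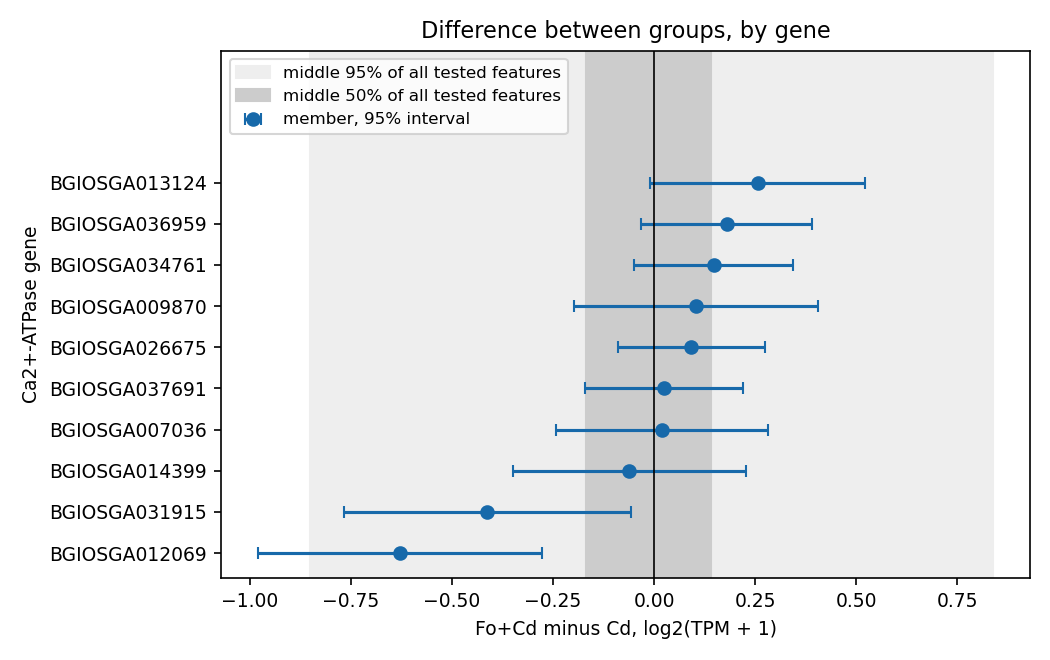
Log2(TPM + 1) difference of Fo+Cd minus Cd (x axis) for each member (y axis), with its 95% interval from limma; the dark and light bands hold the middle 50% and 95% of all tested features. BGIOSGA012069 at -0.63 and BGIOSGA031915 at -0.41 have intervals that do not reach 0, and the other 8 intervals do.

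The level threshold left out 2 genes with the same description. BGIOSGA005135, the nearer to it, reached 1 TPM in none of the libraries, at 0.44, 0.20 and 0.37 TPM in Cd and 0.87, 0.73 and 0.43 TPM in Fo+Cd replicates 1, 2 and 3. BGIOSGA013123 was listed at 0 in 5 libraries and at 0.03 TPM in Fo+Cd replicate 3, whereas the gene with the next identifier, BGIOSGA013124, is a member at 5.83 to 8.10 TPM. The member nearest to the threshold was BGIOSGA031915, given above, and all 10 members had at least 1 TPM in each of the 6 libraries. Pumps of 1 family share sequence, so the authors' counting may have divided reads between members, and the values of single members are uncertain to that extent.

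Ca2+ also leaves the cytosol through exchangers, which use the gradient of another ion. Of 2 exchangers found by description, 1 was called. CAX1c (BGIOSGA008054), described as a sodium/calcium exchanger region protein, was at 0.76, 0.93 and 0.83 TPM in Cd and 4.67, 4.49 and 4.50 TPM in Fo+Cd replicates 1, 2 and 3. All Fo+Cd libraries were far above all Cd libraries (log2 difference 1.59, SE 0.143, adjusted p = 0.00195 in limma). This gene reached the level filter only through the Fo+Cd libraries, so it had to differ to be tested to begin with. Its description also cites no database, and 91.2% of the 226 tested genes so described were called. The sodium/calcium exchanger NCL (BGIOSGA002986) was at 80.3, 82.8 and 82.0 TPM in Cd and 93.6, 60.2 and 73.8 TPM in Fo+Cd, which overlap (adjusted p = 0.742).

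Ca2+ enters the cytosol through channels, and none of 16 tested channel genes was called. In limma 1 of the 16 had an unadjusted p under 0.05, beside 15.4% of all tested features. Of the 16 channel genes, 14 are glutamate receptors, a family of ligand-gated channels. BGIOSGA029720, the glutamate receptor with the smallest p, was at 16.1, 16.4 and 13.4 TPM in Cd and 11.4, 12.9 and 12.4 TPM in Fo+Cd (adjusted p = 0.281). The next was BGIOSGA030807, at 2.19 ± 0.537 and 2.99 ± 0.271 TPM (adjusted p = 0.424).

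Calmodulin is the Ca2+ sensor that activates ACA pumps. The 9 features whose description opens with calmodulin included 5 calmodulin genes and 4 others, namely calmodulin-binding or -interacting proteins and a calmodulin-like gene. None was called in limma, and 1 of the 9 had an unadjusted p under 0.05, beside 15.4% of all tested features. That 1 was a calmodulin-interacting protein (BGIOSGA035016, 1.72 ± 0.25 and 2.51 ± 0.161 TPM, adjusted p = 0.317). CAM2 (BGIOSGA017813) was at 390, 359 and 368 TPM in Cd and 354, 286 and 344 TPM in Fo+Cd replicates 1, 2 and 3. Its Fo+Cd values were all below its Cd values (log2 difference -0.19, adjusted p = 0.462). Values were lower in Fo+Cd for 8 of the 9 features, the 5 calmodulin genes among them, and for 49.6% of all tested features. The median log2 difference of the 9 was -0.12. Some of the 5 calmodulin genes carry the same name and description, and reads may have been divided between them, as for the pumps. Their shared direction is thus not counted as that of separate genes.

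Ca2+-dependent protein kinases bind Ca2+ through a domain of their own, so the sensor and the kinase are 1 protein. None of the 3 found by description was called. Over all tested features 8.06% had lower values in Fo+Cd at an unadjusted p under 0.05 in limma, and 1 of the 3 kinase genes did. That was the isoform 11 gene (BGIOSGA011765), at 103, 112.8 and 107 TPM in Cd and 82.2, 94.1 and 85.0 TPM in Fo+Cd, lower in every Fo+Cd library (log2 difference -0.30, adjusted p = 0.156). The kinase 29 gene (BGIOSGA014554) was at 2.91 ± 0.16 and 2.01 ± 0.544 TPM (adjusted p = 0.366). Other Ca2+-binding proteins found by description were 6 annexins, 2 calmodulin-like genes and 1 calcineurin B-like sensor gene. None of these was called, and none had an unadjusted p under 0.05 in limma. Genes of these families described in other words are not covered. The annexin with the smallest p was BGIOSGA019773 (18.4 ± 3.09 and 15.0 ± 1.28 TPM), followed by BGIOSGA028703 (15.6 ± 0.667 and 14.5 ± 1.51 TPM). The calmodulin-like genes were CML1 (BGIOSGA004661, 3.48 ± 1.64 and 2.53 ± 1.39 TPM) and CML48 (BGIOSGA026494, 25.7 ± 2.11 and 24.8 ± 1.79 TPM), and the calcineurin B-like gene BGIOSGA033456 was at 52.7 ± 2.61 and 55.2 ± 8.27 TPM.

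Other P-type ATPases share the reaction cycle of the Ca2+ pumps but move other cargo. The plasma membrane H+-ATPases, which energise root nutrient uptake, had 11 described genes, of which 4 were tested, 0 called and 2 higher at an unadjusted p under 0.05, a p and direction found for 7.35% of all tested features. BGIOSGA025316 was at 50.3, 57.1 and 55.2 TPM in Cd and 74.7, 67.7 and 64.5 TPM in Fo+Cd, with every Fo+Cd library above every Cd library (log2 difference 0.34, adjusted p = 0.134). BGIOSGA017272, the most abundant of them, was at 488, 620 and 522 TPM in Cd and 599, 697 and 715 TPM in Fo+Cd, where the groups overlapped (log2 difference 0.31, adjusted p = 0.308). The least abundant of the 4, BGIOSGA013360, was lower in each Fo+Cd library, at 1.53, 1.74 and 1.61 TPM in Cd against 0.98, 1.15 and 1.26 TPM (log2 difference -0.30, adjusted p = 0.428), and BGIOSGA037870 had a log2 difference of 0.03.

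None of 10 phospholipid-transporting ATPases, 3 heavy metal ATPases and 1 manganese-transporting ATPase was called either, and none had an unadjusted p under 0.05 in limma. Among the first, BGIOSGA028814 had Cd and Fo+Cd means of 13.9 ± 1.38 and 15.9 ± 0.29 TPM, and BGIOSGA031939 was at 27.8 ± 2.26 and 31.7 ± 1.33 TPM. The copper pumps RAN1 (BGIOSGA007052) and PAA1 (BGIOSGA028879) were at 32.9 ± 0.785 and 29.8 ± 2.62 TPM and at 28.6 ± 0.397 and 30.9 ± 0.523 TPM. Heavy metal ATPases, like the genes of every other list, were found by description only, so any described in other words are not covered. The gene described as a probable manganese pump, PDR2 (BGIOSGA018086), was at 31.0 ± 2.43 and 35.6 ± 4.6 TPM. Over the 11 lists together, 1 of 56 features was called, or 1.79%, beside 2.45% of all tested features. That 1 was CAX1c, with the limits of filter and description given above, so no conclusion is drawn from this share. No test set these lists against the Ca2+ pumps.

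**Figure D4:**
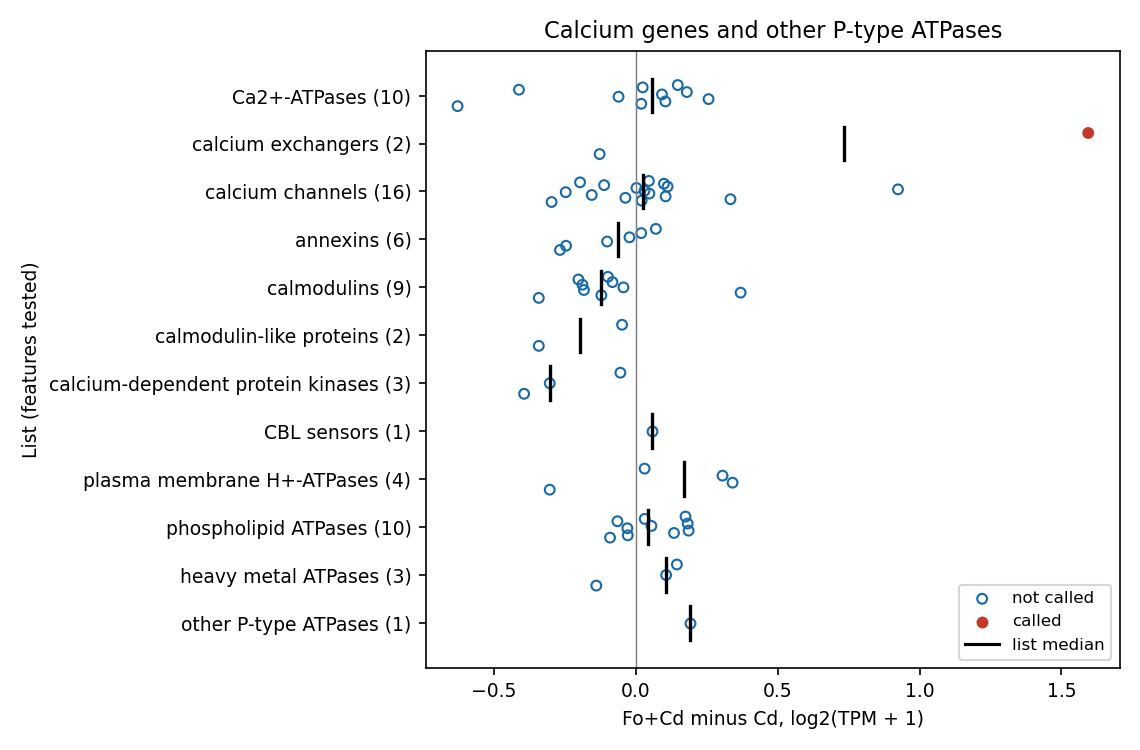
Log2(TPM + 1) difference of Fo+Cd minus Cd (x axis) for each tested feature of the Ca2+ pumps and of the 11 other lists (y axis, number of features in parentheses), with the list median as a black line. The filled red point is CAX1c at 1.59, the 1 called feature, and the open blue points were not called.

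The libraries carried the root markers searched for. All 5 root marker genes, the silicon efflux transporter gene and 4 Casparian strip membrane protein genes, were tested and summed to 868 to 1313 TPM, against 23.4 to 33.2 TPM for 25 photosynthesis genes of shoots, of which 7 were tested. In neither list was a gene called in limma, and 0 of the shoot genes had an unadjusted p under 0.05. The most abundant root marker, the silicon efflux transporter gene BGIOSGA011605, was at 715 ± 106 and 904 ± 199 TPM, higher in Fo+Cd by a log2 difference of 0.33 with overlapping groups (adjusted p = 0.445). The 4 Casparian strip genes, which mark the root endodermis, had lower means in Fo+Cd, and 3 of them had an unadjusted p under 0.05, a p and direction found for 8.06% of all tested features. Among these 3 were BGIOSGA016544 (7.59 ± 1.7 and 5.19 ± 0.63 TPM) and BGIOSGA027833 (46.3 ± 5.81 and 37.5 ± 2.85 TPM). Among the shoot genes the smallest p belonged to BGIOSGA035064 (5.81 ± 0.0551 and 8.14 ± 1.94 TPM) and BGIOSGA030566 (5.68 ± 1 and 7.38 ± 1.43 TPM). In bulk roots, fewer cells of a type and less RNA per cell cannot be told apart. The part of cell makeup in the values of BGIOSGA012069 and BGIOSGA031915 was not tested.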

How the data were processed

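Stranded poly(A) libraries from TRIzol-extracted root RNA were sequenced, per the labels' protocols. The authors deposited 1 table of TPM values; the unit was recognised from the values, which sum to 963281 to 966767 per library. Which aligner, quantification program and build were used is not given in the sources used here. TPM keeps no depth, so no counting interval was computed. The authors' mean columns were not used.

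Values were transformed to log2(TPM + 1). Those reaching 1 TPM in 3 or more of the 6 libraries were tested with limma 3.58.1 in R 4.3.3 (trend and robust settings, no covariate), Benjamini-Hochberg adjustment over all of them and a threshold of 0.05. Tables were made with Python 3.11.15 and pandas 2.3.3.

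Lists were matched by description, without regard to case; 2 lists (CIPK kinases and endoplasmic reticulum store proteins) found no feature. All members were named. From each list, called features (up to 4) or else the 2 with the smallest p were named. NCL, 2 H+-ATPase genes (BGIOSGA013360 and BGIOSGA037870) and the silicon transporter gene were named after their values were seen. The members and lists were chosen with earlier results of these data known. Alternatives were another pseudocount, other filters, rescaling, plainer limma settings, a replicate block and leaving out each library.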

Additional observations from a re-analysis of the deposited data

How the results depend on the processing

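The 10 members had 13 alternatives each. Of these 130 values, 124 kept their direction and their side of the threshold, 5 turned in direction and 1 passed. That 1 was BGIOSGA012069 without Fo+Cd replicate 2 (log2 difference -0.78, adjusted p = 0.0468), so the number of members called ran from 0 to 1 when single libraries were left out and was 0 under every other fit. By unadjusted p, a count added after seeing the data, 2 members were under 0.05. That count was 1 without Cd replicate 1 or 2, without Fo+Cd replicate 1 or 2 and with the replicate block, 3 with no filter and with plainer limma settings, and 2 otherwise. The turns in direction all came from leaving out a library, in members with differences near 0: the ranges were -0.050 to 0.097 for BGIOSGA007036, -0.0089 to 0.077 for BGIOSGA037691, -0.017 to 0.17 for BGIOSGA009870 and -0.16 to 0.0089 for BGIOSGA014399. Features called over the whole table ran from 189 (without Fo+Cd replicate 3) to 726 (without Cd replicate 2), against 518; the cause was not tested. Of the calls without Cd replicate 2, 50.6% were higher in Fo+Cd, and without Cd replicate 3 89.2%, against 70.5%. Rescaling moved the median of all features by under 0.1.

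Calls over the other lists ran from 0 to 2 when a library was left out. The 2, without Cd replicate 1, both reached the filter only through the Fo+Cd libraries. The calls were 0 with at least 1 TPM required in all 6 libraries, and 0 without any Fo+Cd library, because CAX1c then no longer reaches the filter. With no filter on low values CAX1c was still called (log2 difference 1.59, adjusted p = 0.00314 in limma). That fit leaves the limit of its description, which cites no database, and its Cd values were all under 1 TPM. No conclusion is drawn from this call. Deviations of same-numbered libraries from their group means correlated only weakly (-0.0325, 0.0847 and 0.0734). Those of differently numbered libraries had correlations from -0.12 to 0.0689. The numbers were not taken as pairs, though such values from 3 libraries a group cannot exclude pairing. With the replicate block in limma, 353 features and 0 members were called, and BGIOSGA012069 had an adjusted p of 0.141. Summed family TPM was 6.03 TPM higher in Fo+Cd, with a pooled SD of 14.1 TPM, and this difference ran from -0.65 (without Cd replicate 3) to 15.9 TPM (without Cd replicate 2). What limits these results is 3 libraries a group and an unknown depth.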

Other observations

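Calcium transport genes outside the lists, chosen after their values were seen, were not called in limma. A calcium load-activated calcium channel gene (BGIOSGA009900), a class known in animals for releasing Ca2+ from an overfilled endoplasmic reticulum, was at 55.0, 51.2 and 52.3 TPM in Cd and 67.3, 59.9 and 63.7 TPM in Fo+Cd replicates 1, 2 and 3. Every Fo+Cd library was above every Cd library (log2 difference 0.26, adjusted p = 0.185). A gene described as similar to the Arabidopsis exchanger CAX5 (BGIOSGA007496) was at 2.36, 2.27 and 2.68 TPM in Cd and 3.72, 2.74 and 3 TPM in Fo+Cd, also without overlap (adjusted p = 0.465). A Ca2+-permeable mechanosensitive channel gene (BGIOSGA011893) was at 17.4, 14.4 and 18.5 TPM and at 17.2, 16.9 and 14.8 TPM, with overlap.

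The channel gene with the largest difference had 1 Cd library far from the others. This glutamate receptor gene, BGIOSGA029716, was at 12.2 TPM in Cd replicate 1 and at 0.38 and 0.66 TPM in the other Cd libraries, against 4.11, 6.10 and 4.68 TPM in Fo+Cd replicates 1, 2 and 3. With all libraries its adjusted p was 0.663 in limma, and without Cd replicate 1 it was called (log2 difference 1.96, adjusted p = 0.0155). In that fit the gene reached the level filter only through the Fo+Cd libraries, so it had to differ to be tested, and no conclusion is drawn from the call. Without Cd replicate 2 or 3 the difference was 0.34 or 0.47, against 0.92 with all libraries.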
